A study of Mus musculus with 25 samples.

Results

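The Cdh6 window is mm9 chr15:12900000-13250000, a stretch of 350 kb named for the cadherin gene Cdh6. Its members are all regions of the 9 deposited lists that overlap the window by 1 base or more. They number 261 of 222320 regions, and they include 125 of the 96409 distinct fragments of the split DamID (SpDamID) lists. The window was chosen from these same lists, for high N1 scores at chr15:13139514-13140643 and for very broad Notch-dependent FAIRE regions. Counts, scores and lengths in it are therefore given as a description, with no test.

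Cdh6 (K-cadherin) is a classical cadherin, a transmembrane protein that joins cells by binding calcium-dependently to cadherins on neighbouring cells. In the developing kidney it is known from the forming nephron, where it marks early precursors of the proximal tubule, and Notch signalling is needed for proximal nephron fates. In Notch signalling, the cleaved receptor enters the nucleus, joins the DNA-binding protein RBP, and draws in the co-activator MAML and the acetyltransferase p300.

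Libraries came from mK4, a cell line from mouse embryonic kidney mesenchyme, so every value describes 1 line. SpDamID joins an inactive part of the bacterial methylase Dam to each of 2 proteins and marks GATC sites where both meet. By the labels, the D part was on N1 (Notch1) or Mef2c, a MADS-box transcription factor, and the AM part, with Ert2, on RBP, MAML, p300 or N1. N1/RBP, N1/MAML, N1/p300 and the Dam control have 3 libraries each, N1/N1 has 2, and Mef2c/MAML and Mef2c/p300 have 1 each. FAIRE, which recovers open chromatin, has 3 control and 3 N1wt libraries and 1 N1wt input, and ChIP against a myc tag has 1 N1 library and 1 input. The strain label is CD1 except for 1 N1/N1 library (CD2) and the Mef2c/MAML library (CD3), and no treatment is labelled. Libraries were pooled into the lists, so no value here carries an error between replicates, and the depth behind it is unknown. All 6 SpDamID lists were scored over the same Dam libraries. Scores of one fragment in several lists are therefore given as values, and no agreement between lists is read from them. Scores have no stated common scale, so how high a fragment stood in one list against another is given by its rank or percentile within each list.

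The sources used here do not give the mm9 position of Cdh6, so whether a region lies in the gene or upstream of it was not determined. In RefSeq (GRCm38.p6) the gene is on the minus strand, so that upstream means higher coordinates. There the nearest protein-coding neighbours are Drosha, a nuclease of microRNA processing, on the lower side and Cdh9, another cadherin, on the higher side. Expression of Cdh6 was not measured in these lists. The RefSeq promoter of Cdh6 is shown because SpDamID can mark only DNA between GATC sites and because RBP binds a core written TGGGAA. The 250 bases before the start hold 1 GATC, in capitals.
Cdh6 promoter: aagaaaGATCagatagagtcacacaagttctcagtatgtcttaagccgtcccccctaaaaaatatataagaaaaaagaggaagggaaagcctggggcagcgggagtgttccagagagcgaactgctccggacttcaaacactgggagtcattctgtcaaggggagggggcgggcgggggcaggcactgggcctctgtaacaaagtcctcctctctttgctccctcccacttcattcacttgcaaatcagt
Just after the start lies the single TGGGAA match, on the opposite strand, in capitals, with its first printed base 38 bases after the start.
RBP core match: tggagccgtaaccTTCCCAtcccgag
Over the 32851 promoter windows of RefSeq, from 250 bases before to 50 after a start, 25.6% hold TGGGAA on either strand and 48% hold GATC. A loose form of the Mef2 site, with any bases allowed between its outer CTA and TAG, has no match in the Cdh6 promoter, and 3.69% of promoters hold one. These matches are letters only, and no SpDamID region is placed on this promoter here.

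A run of 3 fragments that adjoin end to end and span 1130 bp held high scores in all 4 N1 lists. The central one, chr15:13139868-13140308 (441 bp), had an N1/RBP score of 733, an N1/MAML score of 758, an N1/p300 score of 756 and an N1/N1 score of 761. On chromosome 15 it was the highest of 1366 N1/RBP regions, the 2nd of 1588 in N1/N1, the 3rd of 921 in N1/MAML and the 20th of 1147 in N1/p300. In the whole lists its rank was 16 of 28281 in N1/RBP, 24 of 16547 in N1/MAML, 31 of 22360 in N1/p300 and 7 of 31938 in N1/N1. It stood near the top of all 4 N1 lists, which is how the locus was chosen. No agreement between the lists is read from these ranks.

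The flanking fragments followed on both sides. To the right, chr15:13140309-13140643 had an N1/RBP score of 703, with 742 in N1/MAML, 721 in N1/p300 and 706 in N1/N1. To the left, chr15:13139514-13139867 scored 682, 695, 660 and 686 in the same order. The next fragment on that side, chr15:13139022-13139419, was lower in each N1 list, at 542, 418, 536 and 486. Scores were lower next to the run on both sides. On the right the next N1/MAML fragment, chr15:13154882-13156950, began 14.2 kb beyond the run and scored 289, while N1/RBP, N1/p300 and N1/N1 scored the nearer chr15:13140896-13141858 at 504, 474 and 586. The short fragment between, chr15:13140644-13140895, scored 401 for N1/p300 and 124 for N1/N1 and was not in the N1/RBP list. The longest runs of adjoining fragments in the window were here for all 4 N1 lists, 3 fragments for N1/RBP and N1/MAML and 5 for N1/p300 and N1/N1.

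**Figure D1:**
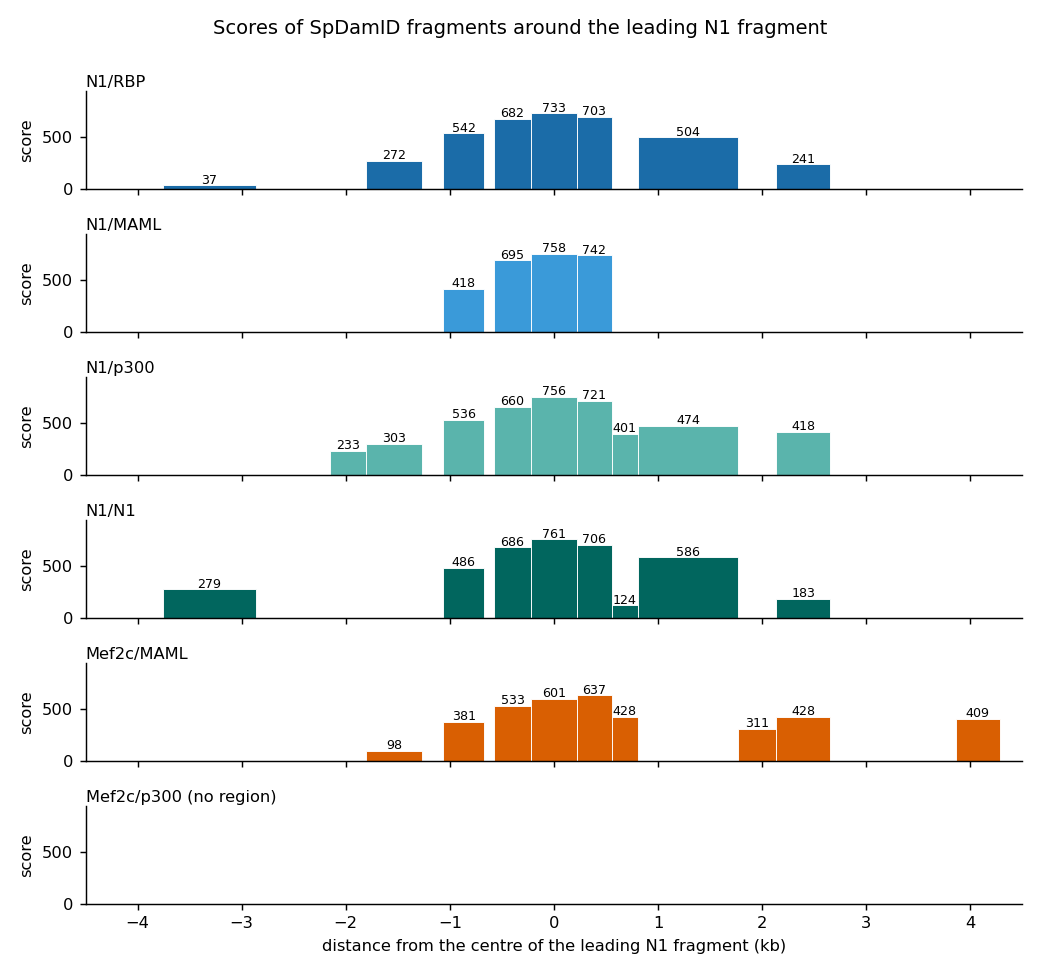
SpDamID scores (vertical axis, deposited whole-number score over Dam) of the fragments around chr15:13139868-13140308, against the distance in kb from its centre. Each bar spans 1 fragment and carries its score. Bars peak at the centre in the 4 N1 lists (733 to 761) and one fragment to the right in Mef2c/MAML (637), and Mef2c/p300 has no region here.

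Mef2c/MAML has no Notch protein in it and also marked these 3 fragments, with scores of 533, 601 and 637 from left to right. Its highest score lay on the right fragment and those of the N1 lists on the central one. The ranks also differed: the central fragment was 3079 of 50381 in Mef2c/MAML, and the right one 1329. Mef2c/MAML held the 4 adjoining fragments of chr15:13139514-13140895, its longest run in the window. Mef2c/p300 held none of them. A gap of 37.4 kb in that list spans the run, and its nearest regions ended 24.9 kb below and began 12 kb above the central fragment.

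Of the 125 distinct SpDamID fragments in the window, the Mef2c/MAML list held 67, or 53.6%, against 52.3% of all fragments genome-wide. N1/RBP held 23 (18.4%, against 29.3%), N1/MAML 33 (26.4%, against 17.2%), N1/p300 34 (27.2%, against 23.2%) and N1/N1 36 (28.8%, against 33.1%). Mef2c/p300 held 30 (24%, against 29.8%). By these shares N1/MAML lay furthest above its genome-wide share and N1/RBP furthest below. These shares say how the fragments of the window divide among the lists and not how many regions a list has here.

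Across the window the lists were laid out differently. N1/RBP had no region in the first 120 kb, and 13 of its 23 regions had their centre in the 50 kb from 13100000 to 13149999. The same 50 kb held 9 N1/MAML, 16 N1/p300, 14 N1/N1 and 21 Mef2c/MAML centres, but 3 of Mef2c/p300. In the 150 kb from 12900000 to 13049999 the order was another one. The 3 bins there held 6, 4 and 6 Mef2c/p300 centres and 3, 4 and 4 N1/MAML centres, against 0, 0 and 1 N1/RBP centres and 1, 0 and 3 N1/N1 centres. Most of these N1/MAML fragments were longer than 1 kb. Genome-wide, fragments of at least 2000 bp make up 15.7% of N1/MAML and 0.163% of N1/RBP regions. The part of fragment length in this layout was not tested.

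**Figure D2:**
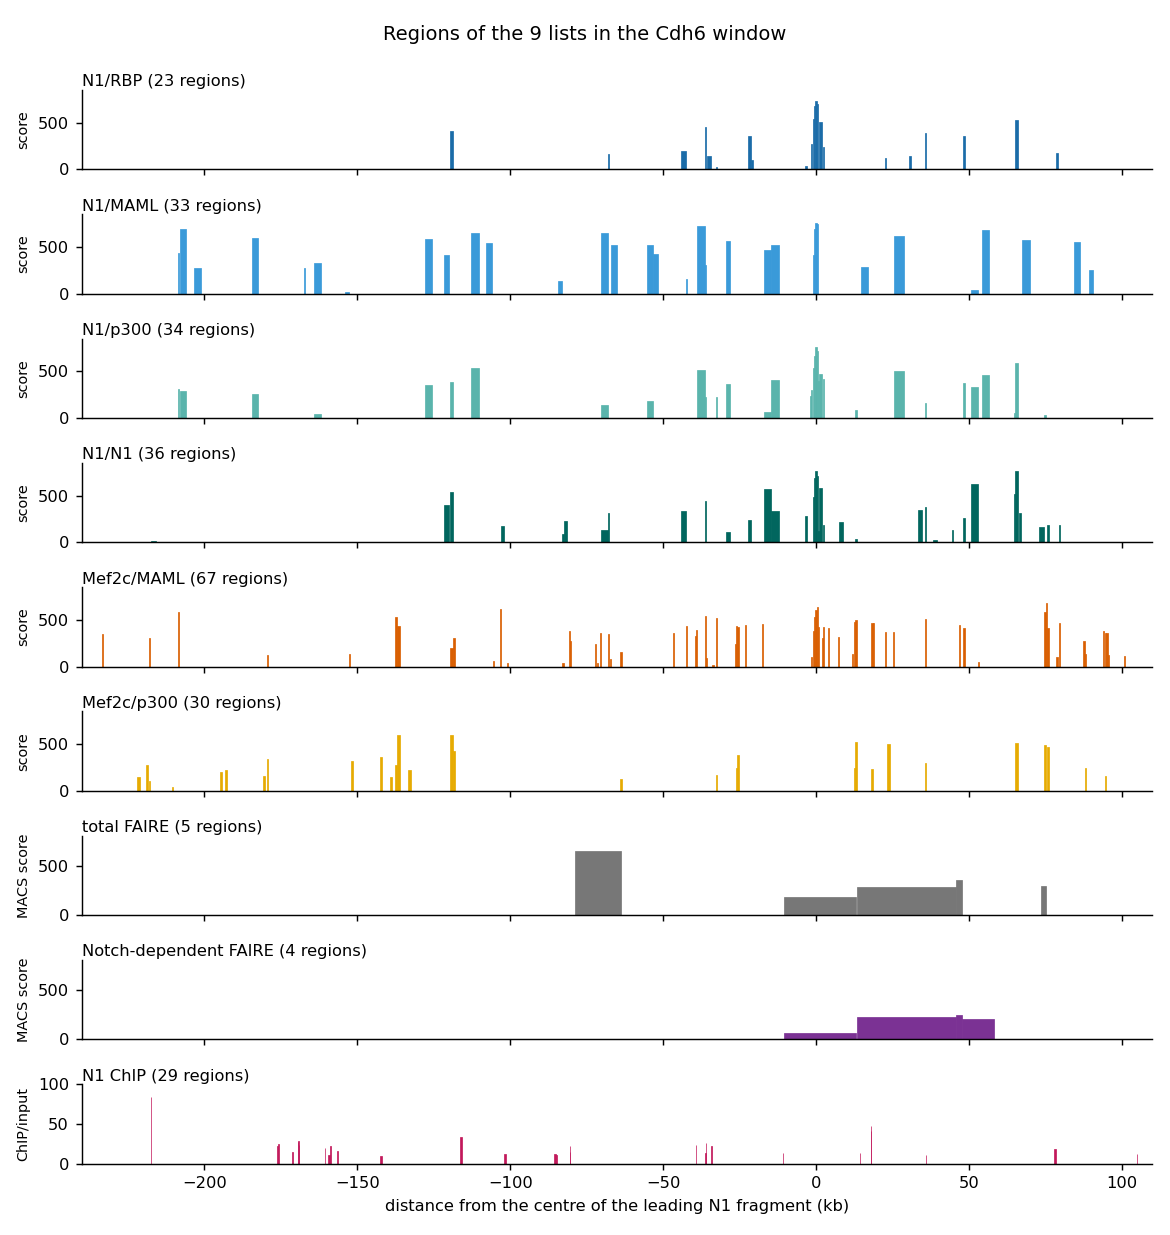
The 9 lists across the Cdh6 window, with distance in kb from the centre of chr15:13139868-13140308 on the horizontal axis and the deposited score (ChIP over input for ChIP) on the vertical axis. Each bar spans 1 region. N1/RBP regions gather around 0, the 4 Notch-dependent FAIRE regions form 1 stretch from just left of 0 to beyond 50 kb on the right, and Mef2c/p300 has no region around 0.

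A second N1/N1 maximum lay apart from the leading run. The fragment chr15:13205064-13206207 (1144 bp), 65.55 kb from the centre of the run, had an N1/N1 score of 766, the highest N1/N1 score on chromosome 15 and 6th of 31938 in the list. Its other scores were 589 in N1/p300, 532 in N1/RBP and 510 in Mef2c/p300 (percentiles 90.7, 87.1 and 90.3), and it was in neither MAML list. In N1/RBP it ranked 3629 of 28281. This fragment lay in no FAIRE region of either list and in no ChIP region.

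On the lower side of the run, chr15:13103673-13104102 was in all 4 N1 lists, at scores of 453 in N1/RBP, 441 in N1/N1, 313 in N1/MAML and 227 in N1/p300 (percentiles 72.7, 77.3, 40.9 and 31.8). Mef2c/MAML scored it at 540, percentile 84.7. It is also 1 of 2 window fragments with a ChIP region of identical ends, at a ChIP to input ratio of 14.2. It adjoins chr15:13101210-13103672 (2463 bp), which scored 721 for N1/MAML, 100th of 16547, and 512 for N1/p300, and which no other list held. These neighbours share a boundary and differ in length and in the lists that held them. Fragments of at least 2000 bp make up 15.7% of N1/MAML, 3.07% of N1/N1 and 2.17% of N1/p300 regions genome-wide. In N1/RBP, Mef2c/p300 and Mef2c/MAML the shares are 0.163, 0.143 and 0.0357%. The part of length in this difference was not tested.

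Further fragments stood higher in a Mef2c list than in the N1 lists, by percentile of each list. The fragment chr15:13020451-13021428 scored 599 for Mef2c/p300 and 534 for N1/N1, with 416 for N1/RBP, 391 for N1/p300 and 200 for Mef2c/MAML, percentiles 97.9, 90.2, 65.6, 58.6 and 26.6. At chr15:13215110-13215409 Mef2c/MAML reached 683, its highest score in the window and 192nd of 50381, and no other list held that fragment. Mef2c/p300 scored 521 and Mef2c/MAML 499 at chr15:13152824-13153416, where N1/p300 scored 86 and N1/N1 33, percentiles 91.7, 77.1, 11.5 and 5.51. At chr15:13107378-13107811 Mef2c/MAML scored 518 and Mef2c/p300 174, beside 223 for N1/p300 and 28 for N1/RBP, percentiles 80.7, 29.5, 30.9 and 2.6. Mef2c/p300 stood below N1/p300 at this last fragment.

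Another 3 fragments lay in the Notch-dependent FAIRE stretch. The first, chr15:13142225-13142736, scored 428 in Mef2c/MAML, 418 in N1/p300, 241 in N1/RBP and 183 in N1/N1, percentiles 64.4, 63.6, 34.1 and 31. At chr15:13175574-13176084 the scores were 513 in Mef2c/MAML, 394 in N1/RBP, 380 in N1/N1, 299 in Mef2c/p300 and 165 in N1/p300, percentiles 80.1, 61.3, 66.7, 51.4 and 22.5. At chr15:13188167-13188779 they were 417 in Mef2c/MAML, 373 in N1/p300, 355 in N1/RBP and 264 in N1/N1, percentiles 62.6, 55.6, 53.4 and 46.3. Mef2c/MAML, N1/p300, N1/RBP and N1/N1 held all 3, and N1/MAML held none of them. The other 111 fragments were in at most 3 SpDamID lists each. Their median scores were 154 in N1/RBP, 518 in N1/MAML, 303 in N1/p300, 227 in N1/N1, 352 in Mef2c/MAML and 244 in Mef2c/p300. With no common scale, these medians are not compared between lists.

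High scores were unevenly spread over the lists of the window. Of the N1/MAML regions here, 9 of 33 (27.3%) lay in the upper 10% of their list by score (9.97% genome-wide, with ties), and so did 8 of 36 N1/N1 regions (22.2%, against 9.99%). For Mef2c/MAML it was 6 of 67 (8.96%, against 9.9%), and for N1/p300 4 of 34 (11.8%, against 9.97%). Mef2c/p300 had 4 of 30 (13.3%, against 10%) and N1/RBP 3 of 23 (13%, against 9.94%). The 3 fragments of the leading run, for which the window was chosen, are in each N1 count. Without them, 6 of 30 N1/MAML regions (20%), 5 of 33 N1/N1 regions (15.2%), 1 of 31 N1/p300 regions (3.23%) and 0 of 20 N1/RBP regions lay in the upper 10%. For Mef2c/MAML, which also held the 3 fragments, it was 4 of 64 (6.25%) without them. These remain counts in a window chosen from the same lists, and nothing is read from them.

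Open chromatin in the window took the form of very broad regions. Of the 2396 Notch-dependent FAIRE regions, 3 (0.125%) were at least 10 kb long, and all 3 lay here, among the 4 Notch-dependent regions of the window. They run from chr15:13129703 to 13198138 as 1 stretch of 68436 bp, broken by gaps of 49, 24 and 39 bp. The longest, chr15:13153275-13185806, measured 32532 bp, the longest of both FAIRE lists, with a MACS score of 226.55. The next, chr15:13129703-13153225, measured 23523 bp and scored 67.19, at percentile 10.7 of its list, and it holds the leading N1 run. Beyond lay chr15:13185831-13187648 (1818 bp, score 250.81) and chr15:13187688-13198138 (10451 bp, score 211.31).

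Total FAIRE repeated 3 of these regions with identical ends, at scores of 184.63, 283.11 and 357.17 from left to right. The region chr15:13187688-13198138 is in the Notch-dependent list and was not in the total list. Across the genome 2270 of the 2396 Notch-dependent regions overlapped a total FAIRE region. Total FAIRE also had chr15:13061362-13076207 (14846 bp) at a score of 648.43, at percentile 98 of its list, and chr15:13213695-13215065 (1371 bp) at 290.72. Neither overlapped a Notch-dependent region. Of the 4 total FAIRE regions of at least 10 kb genome-wide (0.0207%), 3 lay in the window, and the other, on chromosome 5, measured 12443 bp.

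Notch-dependent FAIRE covered 19.5% of the window and 0.0965% of the rest of chromosome 15, a ratio of 202, and total FAIRE covered 21.2 and 0.807%, a ratio of 26.2. With regions up to the 95th percentile of length the ratios were 0 and 1.32, since all 4 Notch-dependent regions here are longer than that.

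Fragments were unevenly placed with respect to this stretch, which overlapped 35 of the 125 distinct fragments (28%, against 2.8% of fragments that meet a Notch-dependent region genome-wide). Inside it lay 13 of 23 N1/RBP regions, 1.9 per 10 kb against 0.355 per 10 kb in the rest of the window. N1/p300 had 15 of 34 inside (2.2 against 0.675 per 10 kb), N1/N1 16 of 36 (2.34 against 0.71) and Mef2c/MAML 21 of 67 (3.07 against 1.63). N1/MAML had 8 of 33 (1.17 against 0.888) and Mef2c/p300 5 of 30 (0.732 against 0.888). The leading run and the stretch that holds it both served to choose the window, so nothing is read from these densities. Genome-wide, 5.24% of N1/RBP, 6.52% of N1/p300, 4.98% of N1/N1, 3.04% of Mef2c/MAML, 5.34% of N1/MAML and 2.72% of Mef2c/p300 regions overlapped a Notch-dependent region. These genome-wide shares come from far shorter FAIRE regions. In the rest of chromosome 15 the densities inside Notch-dependent regions were 2.48 to 4.45 per 10 kb for the 6 lists, higher for each list than inside the broad stretch, and 16.4 to 37.6 times those outside Notch-dependent regions, highest for N1/p300 (37.6) and N1/MAML (32.5) and 28.5 for N1/RBP.

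N1 ChIP gave 29 regions in the window, with ratios of ChIP to input from 10.2 to 84 and a median of 19.5, against 15.2 in the rest of chromosome 15. None lay on the leading run. The nearest ended 10.5 kb below and began 14.1 kb above the central fragment, and ChIP had no region over 25.1 kb around it. The highest ratio, 84, was at chr15:12922598-12922769 (172 bp). Next came the adjoining chr15:13157994-13158061 (68 bp, 47.6) and chr15:13157876-13157993 (118 bp, 41.7), which lie in the Notch-dependent stretch. The first of them directly adjoins the fragment chr15:13158062-13158738, which scored 465 in Mef2c/MAML and 238 in Mef2c/p300. Most ChIP regions lay on the lower side, with 11 of 29 centred from 12950000 to 12999999, where N1/RBP and N1/N1 had none.

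Of the 125 SpDamID fragments, 2 (1.6%) overlapped a ChIP region, against 1.41% genome-wide. Besides the fragment at 13103673 named above, this was chr15:12997364-12998043, with a ChIP ratio of 10.2 and a Mef2c/p300 score of 364. Both overlaps were ChIP regions with the exact ends of a fragment. ChIP regions here had a median length of 172 bp and the shortest SpDamID fragment measured 252 bp, so many could not share a fragment's ends. Neither agreement nor disagreement of the assays is read from this share. The input signal stood at exactly 0.1 in 20 of the 29 regions and in 20103 of 22307 in the whole list. Ratios in those regions are therefore a rescaled ChIP signal. The list's name says that repeats were masked, and the sources used here do not say which part of the window was masked.

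Against the rest of chromosome 15 the window was dense in all 6 SpDamID lists and in ChIP. N1/MAML had 94.3 regions per Mb against 8.87, a ratio of 10.6 (exact Clopper-Pearson 95% interval 7.27 to 15, which covers counting error only, here and below). N1/p300 followed with 97.1 against 11.1 per Mb, a ratio of 8.73 (6.02 to 12.3). Mef2c/MAML had 191 against 24.7 per Mb, a ratio of 7.74 (5.98 to 9.86), between those of N1/p300 and N1/N1. N1/N1 had 103 against 15.5 (6.63, 4.63 to 9.22), Mef2c/p300 85.7 against 15.4 (5.57, 3.74 to 7.98) and N1/RBP 65.7 against 13.4 (4.9, 3.09 to 7.38). Neighbouring regions are not independent and the window was chosen from these lists, so no order among these ratios is claimed.

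ChIP had a ratio of 7.01 (4.68 to 10.1), and 10.6 with regions of at least 300 bp. Notch-dependent FAIRE had 4 regions where the rest of the chromosome had 1.03 per Mb, a ratio of 11.1 (2.97 to 29.3). With regions within 500 bp merged, the 4 became 1 and the ratio 2.8 (0.0703 to 16). Total FAIRE, at 5 regions, had a ratio of 1.85 (0.6 to 4.34).

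**Figure D3:**
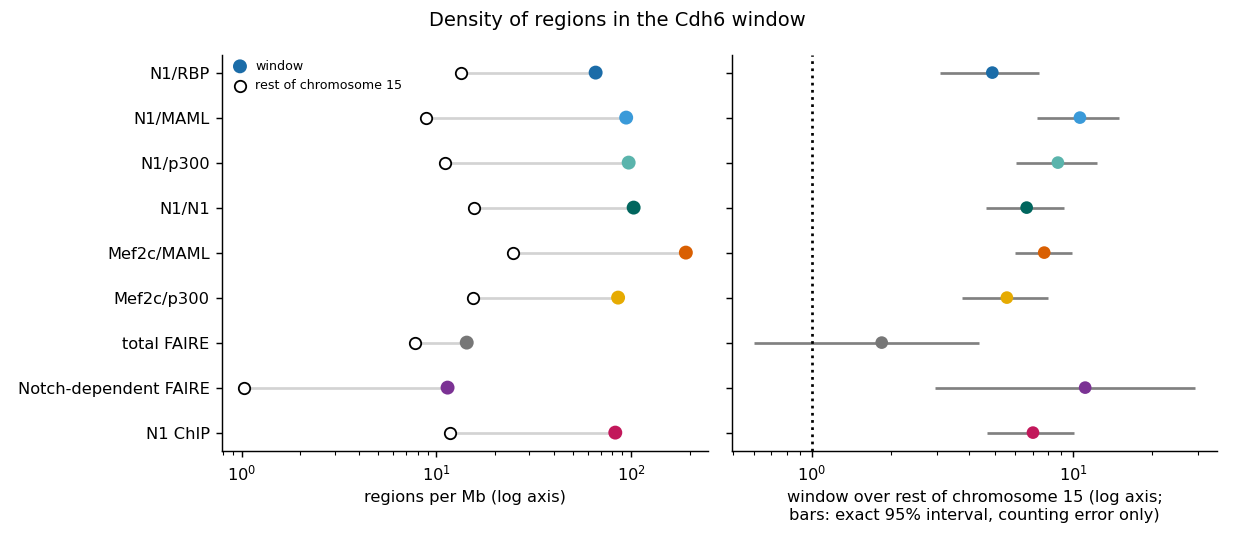
Regions per Mb in the window (filled) and in the rest of chromosome 15 (open), and their ratio with an exact 95% interval, for the 9 lists on log axes. The 6 SpDamID ratios run from 4.9 (N1/RBP) to 10.6 (N1/MAML), and that of total FAIRE is 1.85.

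Set among the 286 stretches of this length on chromosome 15, the window was not unique for most lists. It had the highest number of N1/MAML regions (33, against a median of 1 in the others and at most 30) and the 2nd highest number of N1/p300 (34) and Mef2c/MAML (67) regions. It ranked 5th for N1/N1, 7th for N1/RBP, 9th for ChIP and 10th for Mef2c/p300, and 3rd for Notch-dependent and 52nd for total FAIRE. The most in any other stretch was 46 N1/RBP, 51 N1/N1, 62 Mef2c/p300 and 20 total FAIRE regions. By bases covered it ranked 1st for N1/MAML, N1/p300 and both FAIRE lists, 2nd for Mef2c/MAML, 5th for N1/N1, 8th for ChIP, 9th for N1/RBP and 11th for Mef2c/p300. The stretch just below was also dense, with 17 N1/RBP, 20 N1/MAML, 21 N1/p300, 22 N1/N1, 40 Mef2c/MAML and 35 Mef2c/p300 regions and 74 ChIP regions, and had no FAIRE region. Just above, the numbers were 4, 13, 4, 11, 25 and 11, with 4 ChIP regions and no FAIRE region. Farther to the lower side, another stretch held 46 N1/RBP, 28 N1/MAML, 36 N1/p300, 51 N1/N1, 81 Mef2c/MAML and 62 Mef2c/p300 regions. All 4 stretches with more N1/N1 regions than the window lay on its lower side, and so did all 9 with more Mef2c/p300 regions. For N1/RBP such stretches lay on both sides, and those far on the higher side held 32 and 27 regions. High density was thus shared with stretches on the lower side, and for N1/RBP on both sides, and was not particular to the window.

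**Figure D4:**
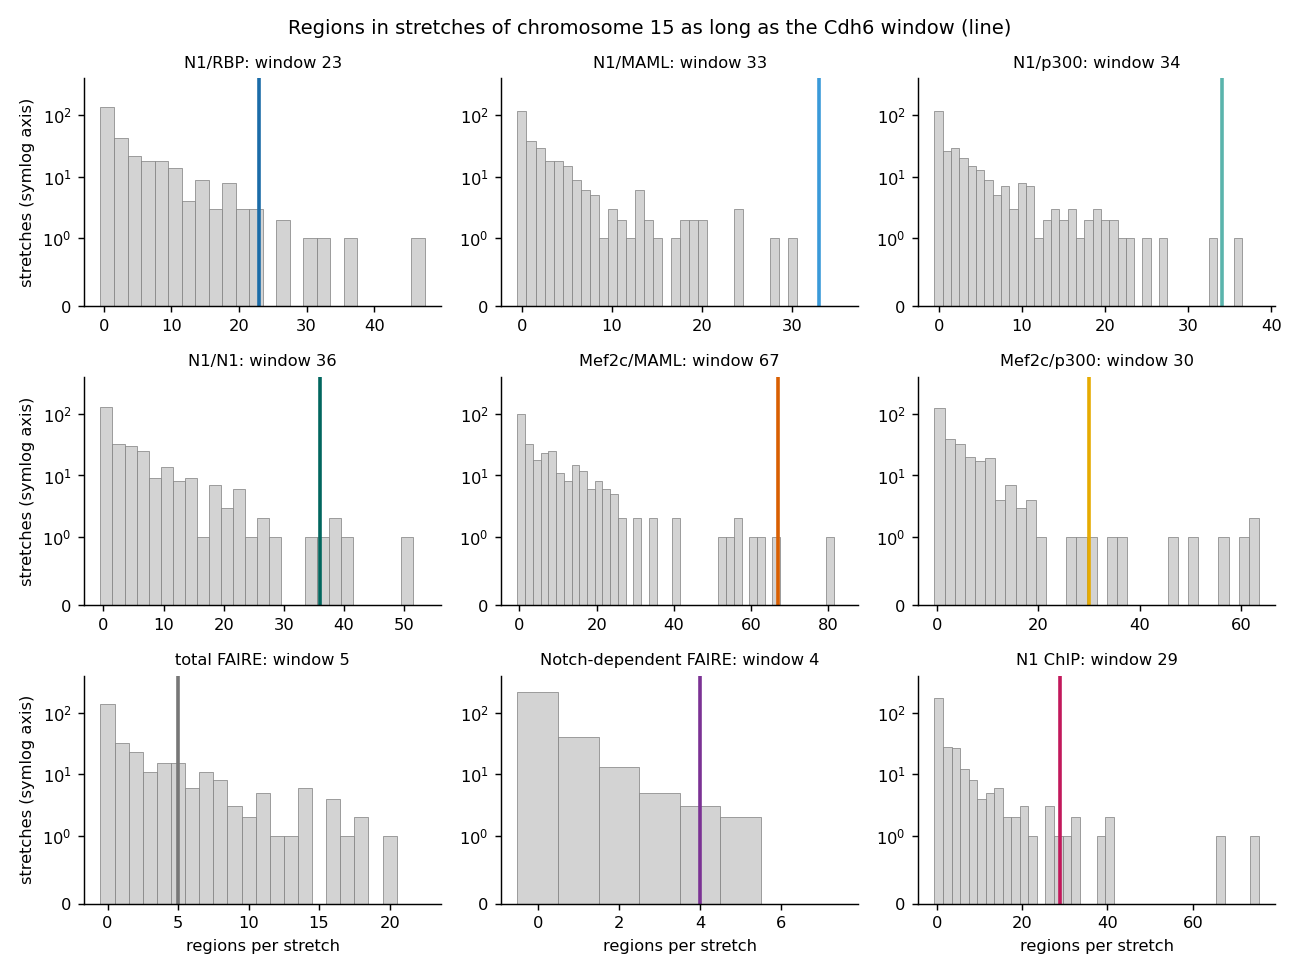
Number of regions (horizontal axis) in the other stretches of chromosome 15 as long as the window (bars, symlog count axis), with the window as a line, for each list. The line lies beyond all bars for N1/MAML (33 against at most 30) and inside the range of the other lists.

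N1/MAML regions of the window were longer fragments than most on the chromosome, and those of nearby dense stretches were long too. Their median length was 1977 bp, against 592 bp in the rest of chromosome 15 and 517 bp in the whole list. Of the 33, 25 (75.8%) measured at least 1 kb, against 37.5% in the rest of chromosome 15 and 23.5% genome-wide. Another 27 stretches of this length on the chromosome held 10 or more N1/MAML regions, and in 7 of them the share of at least 1 kb was as high as here or higher. In the 13 of these within 5 Mb, a distance set after the values were seen, the share ran from 50 to 100%, and in the 14 farther away from 0 to 40%. Median lengths were 1134 to 2157 bp in the near ones and 357 to 538 bp in the far ones. By number of N1/MAML fragments of at least 1 kb the window ranked 1st, at 25, and the next stretch held 22. N1/p300 had 15 of 34 (44.1%) at that length, against 13.4% and 8.71%, and N1/N1 14 of 36 (38.9%), against 32.1% and 31%. N1/RBP had 4 of 23 (17.4%), against 14.2% and 15.3%, and Mef2c/p300 3 of 30 (10%), against 6.23% and 6%. Mef2c/MAML, with the same co-activator as N1/MAML, had 0 of 67 and only 0.435% genome-wide. It comes from 1 library and N1/MAML from 3, and the genome-wide share already ran from 8.71 to 31% among the N1 lists. Nothing about Notch against Mef2c is read from this difference.

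The long fragments also carried high N1/MAML scores. The median was 518 for the 25 of at least 1 kb in the window and 425 for the 8 shorter ones, against 387 and 389 in the rest of chromosome 15. The 8 shorter ones are few and include the 3 fragments of the leading run, for which the window was chosen. The long fragments were spread over the window and not gathered at the leading run, whose 3 fragments measured 335 to 441 bp. Examples are chr15:12932194-12934271 with an N1/MAML score of 690 and an N1/p300 score of 289, chr15:13027189-13029782 with 650 and 533, and chr15:13194219-13196478 with 685 and 456. With fragments under 1 kb only, an alternative added after the data were seen, the density ratio of N1/MAML was 4.12 (1.77 to 8.18) and that of N1/p300 was 5.64 (3.38 to 8.85). The size of the N1/MAML ratio thus rests largely on long fragments. Fragment length is set by the spacing of GATC sites, and its part in the scores was not tested.

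**Figure D5:**
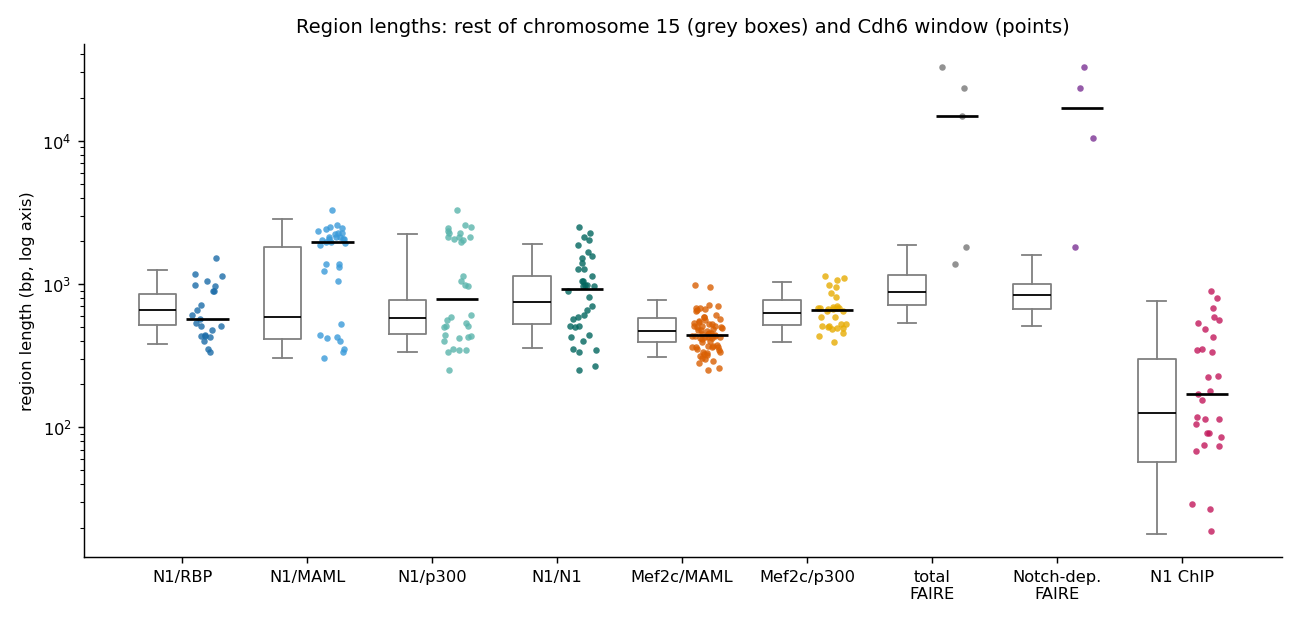
Region lengths in bp (log axis) by list. Grey boxes show the rest of chromosome 15 (median, quartiles, whiskers from the 5th to the 95th percentile), and points show the window with a bar at the median. N1/MAML points gather near 2 kb (median 1977 bp), Mef2c/MAML points stay under 1 kb, and both FAIRE lists lie far above their boxes.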

How the data were processed

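Coordinates of the 9 deposited lists are mm9 (submitters' processing notes). Per the file headers, SpDamID fragments passed a confidence level of 0.999 or more against Dam, and the authors gave each a whole-number score. The word median stands in the track names of 3 N1 lists, those with RBP, MAML or p300. Lists were matched to complexes by the initials of their names. FAIRE lists carry the MACS score of peaks called in Galaxy, per the file headers. For ChIP the deposited columns are a ChIP signal, an input signal and their ratio, which is their quotient to within 4.79e-10 (relative). The sources used here give no aligner or caller version and do not say how Notch-dependent peaks were chosen.

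Here 1 base was added to FAIRE starts, and the 19 autosomes, X and Y were used. A region belonged to the window with 1 base or more of overlap. The rest of chromosome 15 ran from the first to the last base of any list, 3041261 to 103457842. Fragments were named one by one if held by at least 4 SpDamID lists or in the top 1% of a list by score, as were all FAIRE regions and the ChIP regions described. All ChIP regions were to be named, but most are given by range and count. Members, lists and rules were chosen with earlier results of these data known. Alternatives were the region centre, merging within 500 bp, scores from the median up, all chromosomes as reference, the window 50 kb narrower or wider on each side, and limits on length. Functions were tested on simulated data. Python 3.11.15, pandas 2.3.3 and scipy 1.17.1 were used.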

Additional observations from a re-analysis of the deposited data

How the results depend on the processing

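All 61 alternative density ratios lay above 1, and 57 of them stayed within the counting interval of the reported ratio. The exceptions were N1/MAML and N1/p300 with fragments under 1 kb (4.12 and 5.64, for 10.6 and 8.73), ChIP with regions of at least 300 bp (10.6, for 7.01) and Notch-dependent FAIRE with regions within 500 bp merged (2.8, for 11.1). The window was chosen from these lists, so ratios above 1 are no separate support. Wide intervals also hide changes: total FAIRE went from 1.85 to 3.94 with scores from the median up, within its interval of 0.6 to 4.34. Merging lowered counts from 23 to 15 for N1/RBP, 34 to 21 for N1/p300, 67 to 42 for Mef2c/MAML, 5 to 3 for total FAIRE and 4 to 1 for Notch-dependent FAIRE. Without regions above the 95th percentile of length, the covered-base ratios went from 26.2 to 1.32 for total FAIRE and from 202 to 0 for Notch-dependent FAIRE. No paired analysis was possible because the lists pool their libraries and no result comes from a test, and no library could be left out for the same reason. Depth per library is unknown.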

Other observations

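ChIP and SpDamID regions lay side by side along the sequence, with no partial overlap in the window. Here 11 of the 29 ChIP regions adjoined an SpDamID fragment with no base between them, and 2 had its exact ends. If both lists were cut at the same sites, their regions could only coincide or lie apart. Whether they were was not tested, so nothing about the locus is read from this layout. An example is chr15:13104103-13104193, a ChIP region of 91 bp with a ratio of 26, directly after the fragment that ends at 13104102.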
